A study of Mus musculus with 9 samples.

Results

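In colonic mucosa of young mice, 84 genes had their highest values on all Gas-/- arrays, their lowest on all hGas arrays and intermediate values on all WT arrays. Antigen receptor, histocompatibility, CD antigen and chemokine genes were left out of them by the start of the symbol only. They were chosen by these same array values. A gene was read from the probe set whose mean over the 9 arrays was highest, and 11209 of the 18194 genes on the array had such a mean of at least log2 4. A gene was kept when every Gas-/- array exceeded every WT array, every WT array exceeded every hGas array, and the Gas-/- mean exceeded the hGas mean by at least 0.5 on the log2 scale. Of the 11209 genes, 98 met these conditions (0.874%), and the opposite order with the same limit was met by 54. The start of the symbol (H2-, Igh, Igk, Igl, Cd with a digit, Ccl, Cxcl, Ccr or Cxcr) then took out 14, which left the 84. Genes of CD antigens with other symbols stayed among them, such as Ms4a1, which codes for CD20. Because the array values chose these genes, their values are given as a description, without a test.

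The mice were male, 6 weeks old and on the C57BL/6 background, and mucosa had been lifted from the colon with buffer injected beneath it. There were 3 arrays from Gas-/- mice, which lack the gastrin gene, 3 from hGas transgenic mice and 3 from WT mice. The title of the series links it to cell proliferation that depends on progastrin. The promoter that drives the hGas transgene is not given in the sources used here, and progastrin itself was not measured, so genotypes, not progastrin levels, are compared here. No label says that the arrays of a genotype came from separate mice, so SDs and p-values measure the spread between these arrays, whose number limits the precision. The series compared the 3 genotypes with each other, and each of the 3 comparisons shares its arrays with the other two.

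Progastrin is the precursor from which the stomach hormone gastrin is cut, and incompletely processed forms have been studied as growth factors of the colonic epithelium. Colonic mucosa holds epithelium, a lamina propria with plasma cells, macrophages and fibroblasts, and scattered lymphoid follicles, which are rich in B lymphocytes. B lymphocytes carry the surface protein CD20 and depend on the transcription factors Ikaros, EBF1 and Spi-B, and leukocytes of all kinds depend on an actin cytoskeleton to move and adhere. RNA from whole mucosa mixes all of these cells, so fewer cells of a type and less RNA per cell cannot be told apart.

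The targeted gene, Gast, was near background on every array, with means of 2.08 ± 0.08 in Gas-/-, 1.95 ± 0.01 in hGas and 1.96 ± 0.02 in WT mucosa (log2, SD, n = 3 each), and it checks neither the knockout nor the transgene. Array medians lay between 4.13 and 4.16 and log2 4 was reached by 50.8% to 51.0% of the probe sets. Array correlations were 0.990 to 0.996 within genotypes and 0.971 to 0.992 between them. The difference between the 3′ and the 5′ probe sets of actin, a measure of RNA integrity, averaged 0.898 in Gas-/-, 0.905 in hGas and 0.826 in WT mucosa, and so was not in the order of the 84 genes. Epithelial markers were all present: none of the 19 listed was under log2 4 on all arrays.

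Promoters of 5 genes are printed here because these genes belong to the B lymphocyte and leukocyte cytoskeleton groups described below and hold sequence motifs that factors of the B lineage are known to bind. RefSeq promoter windows (build GRCm38.p6, 250 bases before the start to 50 after it) were matched for 62 of the 84 genes. Capitals mark the octamer ATGCAAAT bound by Oct factors, the ETS motif GAGGAAGT bound by PU.1 and Spi-B, and the EBF1 core CCCNNGGG, each searched on both strands. The 5 were picked for holding a match. In the B lymphocyte group Klhl6, Ebf1 and Icosl held none of these motifs, nor did another window of Ikzf1. In the leukocyte cytoskeleton group Coro1a, Gimap4, Rassf5 and Sash3 also held a match, while Arhgdib, Dock2, Lcp1, Limd2 and Pfn1 were among those without one. The windows are Bank1 at chr3:136326017-136326316 on the minus strand, Spib at chr7:44532022-44532321 on the minus strand, Ikzf1 at chr11:11685675-11685974 on the plus strand, Btla at chr16:45224087-45224386 on the plus strand and Fgd3 at chr13:49309159-49309458 on the minus strand.
Bank1: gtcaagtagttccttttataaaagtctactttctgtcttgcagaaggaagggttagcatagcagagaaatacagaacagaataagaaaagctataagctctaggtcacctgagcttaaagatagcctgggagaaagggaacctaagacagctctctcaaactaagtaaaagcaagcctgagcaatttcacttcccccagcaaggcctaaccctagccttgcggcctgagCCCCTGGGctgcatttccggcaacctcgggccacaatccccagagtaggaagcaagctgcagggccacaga
Spib: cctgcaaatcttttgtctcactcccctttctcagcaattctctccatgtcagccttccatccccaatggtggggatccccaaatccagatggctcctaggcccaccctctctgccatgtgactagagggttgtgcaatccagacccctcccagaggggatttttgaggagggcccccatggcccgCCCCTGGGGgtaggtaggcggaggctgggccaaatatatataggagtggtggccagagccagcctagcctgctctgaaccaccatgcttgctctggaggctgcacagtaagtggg
Ikzf1: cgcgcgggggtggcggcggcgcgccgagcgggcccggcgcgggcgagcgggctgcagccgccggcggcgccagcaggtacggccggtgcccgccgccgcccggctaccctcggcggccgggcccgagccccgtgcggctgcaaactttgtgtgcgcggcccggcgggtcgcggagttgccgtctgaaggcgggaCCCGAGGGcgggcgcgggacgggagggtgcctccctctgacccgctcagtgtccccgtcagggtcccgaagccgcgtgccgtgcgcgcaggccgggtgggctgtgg
Btla: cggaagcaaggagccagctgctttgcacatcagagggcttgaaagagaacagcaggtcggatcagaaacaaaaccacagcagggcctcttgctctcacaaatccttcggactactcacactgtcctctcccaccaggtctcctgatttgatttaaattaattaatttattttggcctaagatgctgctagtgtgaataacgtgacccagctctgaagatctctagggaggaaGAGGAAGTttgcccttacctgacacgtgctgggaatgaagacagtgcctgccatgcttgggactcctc
Fgd3: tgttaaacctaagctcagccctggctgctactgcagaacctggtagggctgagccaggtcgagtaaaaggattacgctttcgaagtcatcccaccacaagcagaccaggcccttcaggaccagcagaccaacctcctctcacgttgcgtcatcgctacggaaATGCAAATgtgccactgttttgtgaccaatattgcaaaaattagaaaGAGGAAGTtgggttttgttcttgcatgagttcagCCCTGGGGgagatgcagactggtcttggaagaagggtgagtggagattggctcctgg

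In these windows the EBF1 core began 21 bases before the start in Bank1, 65 and 64 bases before it in Spib, where the matches overlap, 56 bases before it in Ikzf1 and 7 bases before it in Fgd3. The ETS motif began 18 bases before the start in Btla and 41 bases before it in Fgd3, and the octamer 88 bases before it in Fgd3. The 62 genes had 83 windows between them, and a gene was counted when any of its windows held the motif. Of the 62 genes, 15 held the EBF1 core (24.2%), against 15.4% of all 27025 genes in the table. The ETS motif was in 4 (6.45%, against 3.69% of all), and the octamer in 3 (4.84%, against 1.97%). The other motifs searched were held by shares on either side of those of all genes: the interferon-response core GAAANNGAA by 8 (12.9%, against 9.76%), the NF-kB motif GGGANTTCC by 2 (3.23%, against 1.92%), GGGACTTTC by 0 (against 0.403%), the E-box CAGGTG by 13 (21.0%, against 22.6%), the CDX motif TTTATNG by 8 (12.9%, against 12.5%) and TATAAA by 12 (19.4%, against 15.7%). These counts rest on few genes and were not tested, and a match describes letters in the window, not binding.

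The Gas-/- minus hGas difference over the 84 genes ran from 0.52 to 2.83 with a median of 0.92 (log2), and it was at least 1 in 36 genes and at least 2 in 8. The hGas mean was under log2 4, near background, in 13 genes and the WT mean in 2, and folds of these genes depend on the background level. The step between Gas-/- and WT was the larger in 67 genes, the step between hGas and WT in 15, and they were equal to 2 decimals in 2. The share of the whole difference that lay between Gas-/- and WT had a median of 60.5%, with quartiles of 53.4% and 69.8%. It ran from 22.6% in Sycn, which codes for a zymogen granule protein, to 93.9% in Snx30, a sorting nexin gene. Snx30 had low means of 4.39 in hGas and 4.44 in WT mucosa. Its other probe set with a mean of at least log2 4 read 4.37 in both Gas-/- and hGas and 4.17 in WT mucosa.

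**Figure D1:**
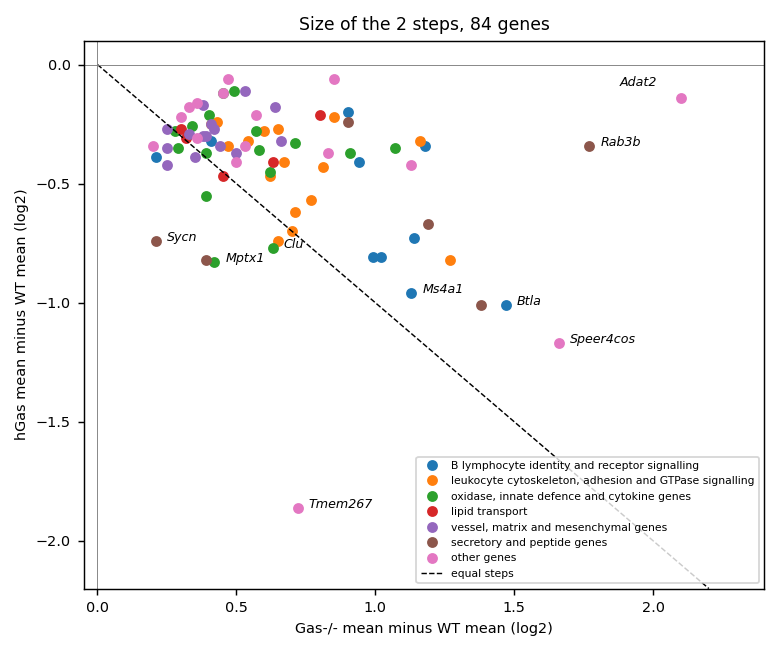
Size of the 2 steps for each of the 84 genes: Gas-/- mean minus WT mean on the horizontal axis and hGas mean minus WT mean on the vertical axis, both log2, with 1 point per gene coloured by role. The dashed line marks equal steps: 67 genes lie on the side of the larger Gas-/- step, Adat2, Rab3b and Speer4cos far along it, while Tmem267 and Sycn lie on the other side.

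Within genotypes, the arrays were not alike over the 84 genes. Deviations from each gene's mean averaged 0.69, 0.48 and 0.56 on Gas-/- replicates 1, 2 and 3. They averaged -0.52, -0.49 and -0.48 on the hGas arrays and -0.04, -0.10 and -0.10 on the WT arrays. The median SD of the 84 genes was 0.16 in Gas-/-, 0.12 in hGas and 0.08 in WT mucosa, against 0.08, 0.09 and 0.09 over all genes tested. The distance from the lowest Gas-/- array to the highest WT array had a median of 0.28, and that from the lowest WT array to the highest hGas array a median of 0.14. In 21 genes at least 1 of these gaps was under 0.05, and in 43 both were at least 0.1.

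**Figure D2:**
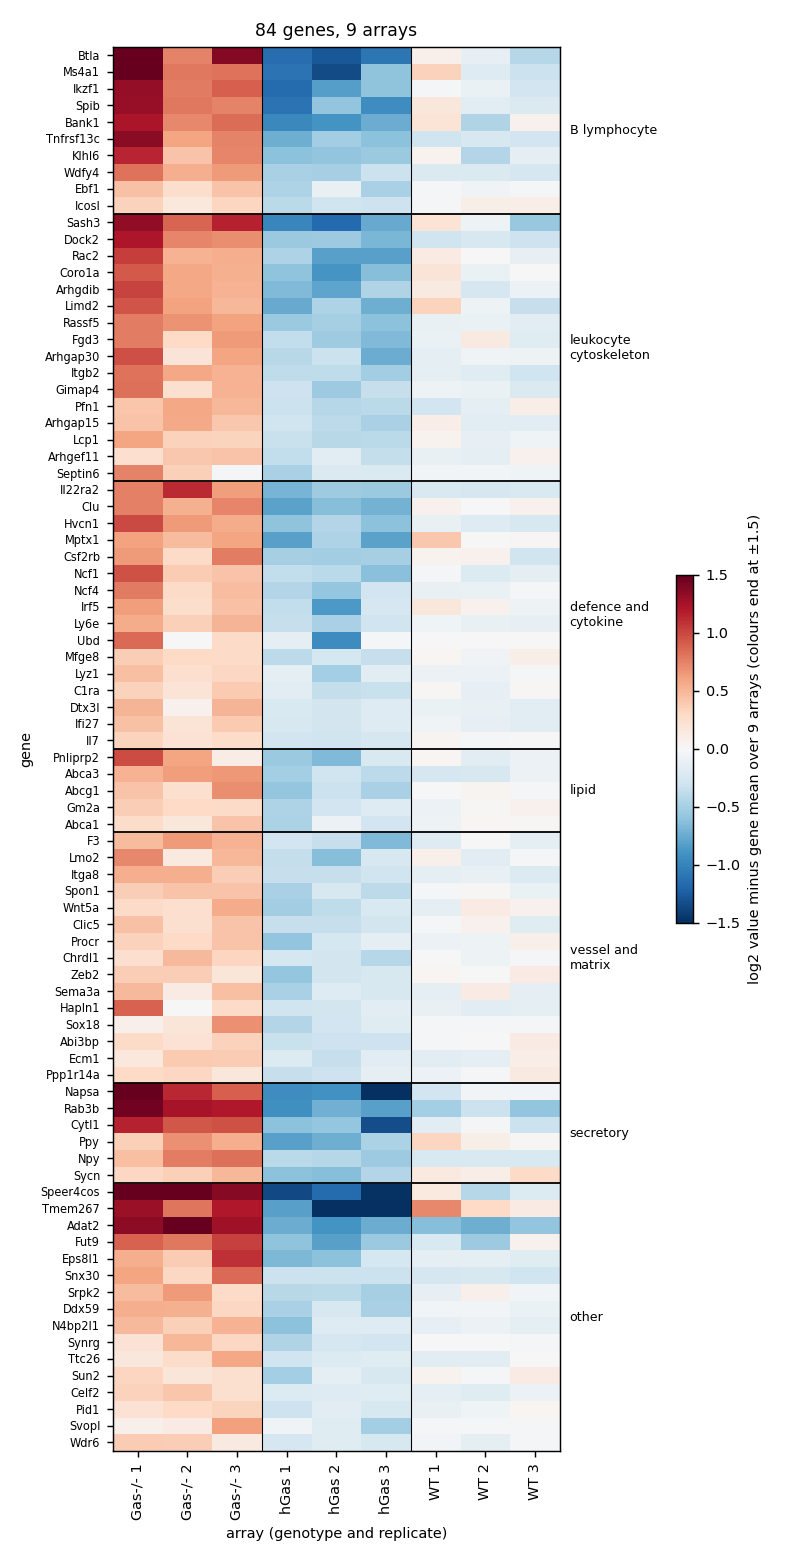
Values of the 84 genes on the 9 arrays, as the deviation (log2) from the average of the gene across arrays, with 1 row per gene grouped by role and 1 column per array in the order Gas-/-, hGas, WT. Red is above and blue below the gene's mean, with colours ending at 1.5: Gas-/- columns run red and hGas columns blue by construction, paler where a gene just met the order, and Gas-/- replicate 1 is the deepest red among the B lymphocyte genes.

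The 10 genes of B lymphocyte identity and receptor signalling had differences from 0.61 to 2.48, with a median of 1.66. Ms4a1, which codes for CD20, read 7.46, 6.63 and 6.65 on the Gas-/- arrays, 4.73, 4.50 and 5.24 on the hGas arrays and 6.18, 5.64 and 5.52 on the WT arrays, so Gas-/- mucosa had 4.25 times the hGas level. In each genotype, 1 array of Ms4a1 stood above the other two. Btla, an inhibitory receptor gene of B and T lymphocytes, read 6.78, 5.68 and 6.31 in Gas-/-, 3.80, 3.67 and 3.86 in hGas and 5.02, 4.82 and 4.51 in WT mucosa. All 3 hGas arrays of Btla lay under log2 4, near background, so its 5.58-fold difference depends on the background level. Ikzf1, which codes for the transcription factor Ikaros, was likewise near background in hGas mucosa, with 5.71, 5.17 and 5.29 in Gas-/-, 3.23, 3.56 and 3.78 in hGas and 4.36, 4.29 and 4.10 in WT mucosa.

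Spib, the gene for the ETS factor Spi-B of B cells and the antigen-sampling M cells, read 6.51, 6.00 and 5.95 in Gas-/-, 4.10, 4.61 and 4.28 in hGas and 5.38, 5.04 and 4.99 in WT mucosa. Bank1, a B cell scaffold gene of antigen receptor signalling, read 6.53, 6.03 and 6.15 in Gas-/-, 4.34, 4.41 and 4.56 in hGas and 5.51, 4.86 and 5.37 in WT mucosa. Both had steps of nearly equal size on either side of WT, with 55.8% of the difference of Spib and 55.2% of that of Bank1 between Gas-/- and WT. Tnfrsf13c, which codes for the receptor of the survival factor BAFF, read 5.50, 4.73 and 4.89 in Gas-/-, 3.41, 3.62 and 3.53 in hGas and 3.84, 3.90 and 3.85 in WT mucosa, near background outside the Gas-/- arrays. Ebf1, the B lineage factor whose core motif was searched above, read 4.98, 4.81 and 4.97 in Gas-/-, 4.08, 4.43 and 4.06 in hGas and 4.53, 4.49 and 4.53 in WT mucosa. These are low values for Ebf1, and its other probe sets with a mean of at least log2 4 differed by only 0.41 and 0.02. The remaining genes placed in this group were Klhl6, a kelch-family gene of B cells (difference 1.35), Wdfy4 (1.09) and Icosl (0.61). Wdfy4 acts in antigen cross-presentation by dendritic cells, and Icosl codes for the ligand of ICOS, a receptor of T cells. Not every gene of the group is thus particular to B lymphocytes.

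**Figure D3:**
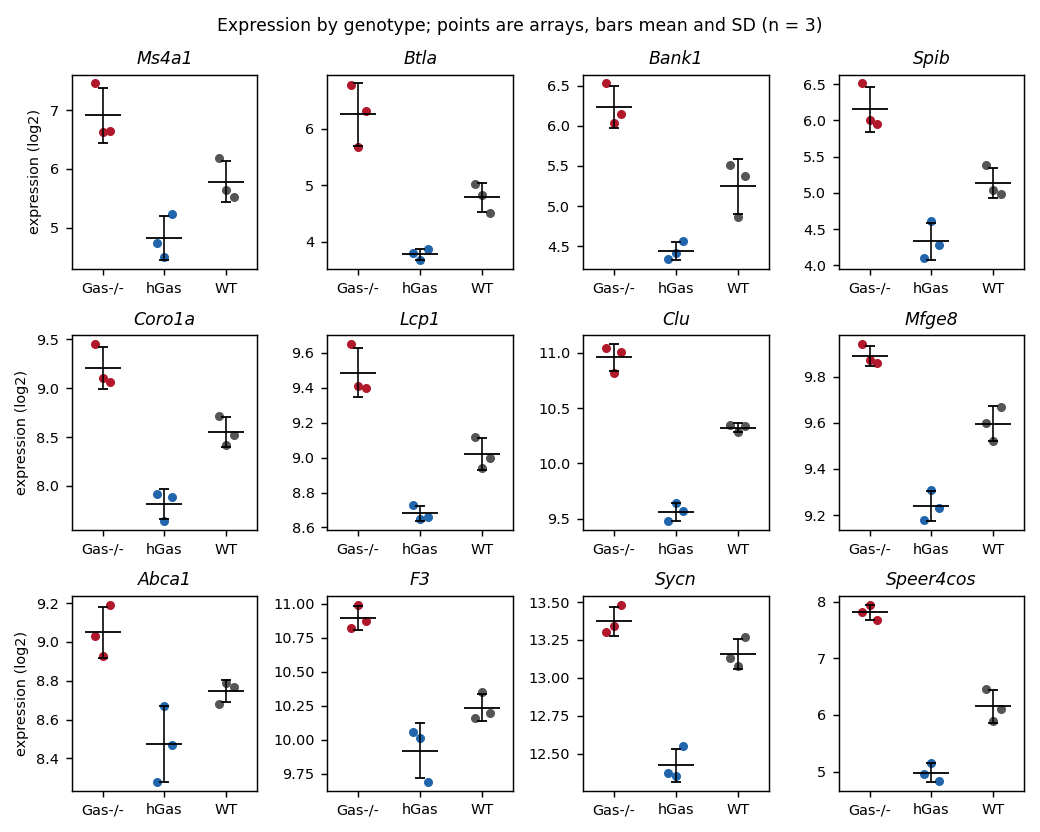
Log2 expression of 12 of the genes by genotype, in the order Gas-/-, hGas, WT, with 1 point per array and bars for the mean and SD (n = 3). Each panel has its own axis, which does not start at 0: WT lies near the middle for Ms4a1, Spib and Bank1, close to hGas for F3, and close to Gas-/- for Sycn.

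The B cell markers as a whole are given beside these genes. Summed over the 29 B cell genes on the array, the linear level was 3625 to 4442 on Gas-/- arrays, 2148 to 2675 on hGas arrays and 2490 to 3181 on WT arrays. That sum holds 5 of the 84 genes and 4 that met the same conditions and were left out by symbol. Over the 20 others it was 3014 to 3440 on Gas-/- arrays, 1984 to 2490 on hGas arrays and 2142 to 2751 on WT arrays, so Gas-/- stood apart while hGas and WT overlapped in both sums. Linear sums give most weight to abundant genes such as the adaptor gene Blnk, with log2 means of 10.60 in Gas-/-, 10.27 in hGas and 10.46 in WT mucosa. With equal weight, deviations of the 15 tested genes outside the 84 averaged 1.04, 0.48 and 0.62 on Gas-/- arrays. They averaged -0.80, -0.49 and -0.51 on hGas and 0.21, -0.21 and -0.36 on WT arrays. The rule fixed the order of 4 of these 15, those left out by symbol. No such average was made without the 4, so nothing is read from the separation of the genotypes in it. Of these 29, 7 were under log2 4 on all arrays, among them Blk, Btk and Pax5, the last a defining gene of the lineage. Of the 18 T cell genes on the array, 15 were under log2 4 on all arrays, among them Cd3e, Cd3d, Cd3g, Cd4 and Cd8a, and the summed level of the 18 was 153 to 202 in Gas-/-, 120 to 129 in hGas and 123 to 133 in WT mucosa. The part of B cell numbers in these differences was not tested.

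The 16 genes of leukocyte cytoskeleton, adhesion and GTPase signalling had differences from 0.66 to 2.09, with a median of 1.10. Coro1a, which codes for the leukocyte actin-binding protein coronin, read 9.45, 9.10 and 9.06 in Gas-/-, 7.92, 7.64 and 7.89 in hGas and 8.72, 8.42 and 8.52 in WT mucosa, a 2.61-fold difference between Gas-/- and hGas with WT near the middle. Lcp1, the gene for the actin-bundling protein L-plastin, read 9.65, 9.41 and 9.40 in Gas-/-, 8.73, 8.65 and 8.66 in hGas and 9.12, 8.94 and 9.0 in WT mucosa. Gas-/- replicate 1 was the highest array for both. Rac2, a signalling gene of blood cells that acts on actin, read 5.54, 5.02 and 5.04 in Gas-/-, 4.04, 3.68 and 3.68 in hGas and 4.62, 4.50 and 4.37 in WT mucosa, with equal steps of 0.70 above and below WT.

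Dock2, which codes for the activator of Rac in lymphocytes, read 5.67, 5.19 and 5.16 in Gas-/-, 3.90, 3.91 and 3.77 in hGas and 4.16, 4.22 and 4.15 in WT mucosa. Arhgdib, a signalling inhibitor gene of blood cells, read 8.40, 7.97 and 7.91 in Gas-/-, 6.73, 6.59 and 6.93 in hGas and 7.52, 7.13 and 7.30 in WT mucosa. For Dock2 the WT arrays lay close to hGas, with 78.5% of the difference between Gas-/- and WT, and for Arhgdib they lay nearer the middle, with 57.4%. Sash3, a lymphocyte adaptor gene, read 5.88, 5.42 and 5.70 in Gas-/-, 3.57, 3.38 and 3.79 in hGas and 4.75, 4.47 and 3.98 in WT mucosa, and its WT arrays were spread widely (SD 0.39).

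Others of this group were the GTPase-activating genes Arhgap15 and Arhgap30, the exchange factor genes Fgd3 and Arhgef11, Rassf5, an effector of Rap in leukocyte adhesion, and Itgb2, the beta chain of the leukocyte integrins. Pfn1, the profilin gene, Septin6, Limd2, a LIM-domain gene, and Gimap4, an immune GTPase gene, completed it. Their differences ran from 0.66 in Septin6 to 1.33 in Limd2. The Septin6 groups were separated by only 0.01 between Gas-/- and WT. The summed level of the 18 genes of the pan-leukocyte list, 6 of which are among the 84, was 4691 to 5978 in Gas-/-, 2766 to 2882 in hGas and 3299 to 3739 in WT mucosa. Over the 11 of them that did not meet the conditions it was 2620 to 3332 in Gas-/-, 1756 to 1780 in hGas and 1901 to 2096 in WT mucosa, and the part of leukocyte numbers was not tested.

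The 16 oxidase, innate defence and cytokine genes had differences from 0.56 to 1.42. Clu, which codes for the secreted chaperone clusterin, read 11.04, 10.82 and 11.01 in Gas-/-, 9.48, 9.64 and 9.57 in hGas and 10.35, 10.28 and 10.34 in WT mucosa. Its genotypes were separated by gaps of at least 0.47 with SDs of 0.12, 0.08 and 0.04, and its other probe sets differed between Gas-/- and hGas by 1.44, 1.48 and 1.45, all with the 9 arrays in the same order. Mfge8, the gene for a protein that bridges dying cells to phagocytes, read 9.94, 9.87 and 9.86 in Gas-/-, 9.18, 9.31 and 9.23 in hGas and 9.60, 9.52 and 9.67 in WT mucosa.

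Subunits of the phagocyte oxidase were in the set, Ncf1 with a difference of 1.05 and Ncf4 with 0.94, beside Hvcn1 (1.28), the proton channel gene that works with that oxidase. Csf2rb (1.07) codes for the shared receptor chain of myeloid cytokines, Irf5 (0.93) for a transcription factor of innate signalling, and Il7 (0.56) for a lymphocyte survival cytokine. Il22ra2, which codes for a soluble decoy receptor of IL-22, had the largest difference of these genes, with means of 7.33 ± 0.25 in Gas-/-, 5.91 ± 0.08 in hGas and 6.26 ± 0.01 in WT mucosa (SD, n = 3 each). Mptx1, a mucosal pentraxin gene, had means of 14.38 ± 0.07 in Gas-/-, 13.13 ± 0.20 in hGas and 13.97 ± 0.23 in WT mucosa, so its larger step lay between hGas and WT. The complement protease gene C1ra (0.60), the lysozyme gene Lyz1 (0.61), whose x_at probe set may also bind the near-identical Lyz2, and the interferon-inducible genes Ly6e (0.85) and Ifi27 (0.58) followed, with Dtx3l (0.60), a ubiquitin ligase gene, and Ubd (0.76), a ubiquitin-like modifier gene. Ubd met the order by a margin of under 0.01 between Gas-/- and WT, with Gas-/- arrays of 5.21, 4.36 and 4.65, hGas arrays of 4.21, 3.42 and 4.33 and WT arrays of 4.35, 4.36 and 4.35. The summed level of 17 macrophage and dendritic cell genes was 7060 to 7924 in Gas-/-, 4720 to 6176 in hGas and 5682 to 5901 in WT mucosa, with 4 of them (Flt3, Xcr1, Zbtb46 and Cd209a) under log2 4 on all arrays. That of 22 interferon response genes was 6857 to 13410 in Gas-/-, 4882 to 6063 in hGas and 4285 to 5163 in WT mucosa. Both lists were highest in Gas-/- mucosa, while hGas and WT overlapped, and their part in these differences was not tested.

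The 5 lipid genes had differences from 0.57 to 1.04. They were the cholesterol exporters Abca1 and Abcg1, the phospholipid transporter Abca3, the ganglioside activator Gm2a and the lipase-related Pnliprp2. Abca1 read 9.03, 8.93 and 9.19 in Gas-/-, 8.28, 8.67 and 8.47 in hGas and 8.68, 8.79 and 8.77 in WT mucosa, where the highest hGas array came within 0.01 of the lowest WT array. Abca3 had means of 9.83 ± 0.07 in Gas-/-, 8.83 ± 0.10 in hGas and 9.04 ± 0.08 in WT mucosa (SD, n = 3 each), with 79.3% of its 2.00-fold difference between Gas-/- and WT. The WT arrays of these genes stood between 48.6% (Abcg1) and 79.3% of the way down.

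The 15 vessel, matrix and mesenchymal genes had smaller differences, from 0.53 to 0.97 with a median of 0.67. F3, which codes for tissue factor, the starter of clotting, read 10.82, 10.99 and 10.87 in Gas-/-, 10.06, 10.01 and 9.69 in hGas and 10.16, 10.35 and 10.20 in WT mucosa. The hGas and WT arrays of F3 came within 0.10 of each other. Procr, the gene for the endothelial protein C receptor, Sox18 and Lmo2, vascular transcription regulator genes, and Zeb2, a repressor gene of the mesenchymal program, differed by 0.62 to 0.87. Wnt5a, a Wnt ligand gene of the mesenchyme, had means of 8.0 ± 0.17 in Gas-/-, 7.26 ± 0.14 in hGas and 7.65 ± 0.14 in WT mucosa (SD, n = 3 each). Matrix and guidance genes were Itga8, an integrin chain, Spon1, Hapln1, Abi3bp and Ecm1, extracellular matrix proteins, Sema3a, a secreted guidance cue, and Chrdl1, an antagonist of bone morphogenetic proteins. Clic5, an intracellular chloride channel family gene, and Ppp1r14a, an inhibitor gene of myosin phosphatase in smooth muscle, had differences of 0.69 and 0.53.

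Summed levels of markers of the matching cell types are given beside these genes. The summed smooth muscle level was 57290 to 65642 in Gas-/-, 60740 to 66555 in hGas and 60962 to 69196 in WT mucosa. The fibroblast sum was 33290 to 35257 in Gas-/-, 33347 to 34138 in hGas and 30997 to 35929 in WT mucosa. The endothelial sum was 1697 to 1827 in Gas-/-, 1539 to 1746 in hGas and 1627 to 1738 in WT mucosa, so the ranges of the genotypes overlapped for all 3 lists. Such sums give most weight to abundant genes, and the part of these cell types in the differences was not tested.

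The 6 secretory and peptide genes had differences from 0.95 to 2.39. Napsa, which codes for the aspartic protease napsin, read 6.46, 5.85 and 5.61 in Gas-/-, 3.78, 3.81 and 3.15 in hGas and 4.43, 4.68 and 4.68 in WT mucosa. Rab3b, a GTPase gene of regulated exocytosis, read 9.15, 8.94 and 8.91 in Gas-/-, 6.79, 6.99 and 6.89 in hGas and 7.20, 7.38 and 7.12 in WT mucosa. Napsa was near background in hGas mucosa, whereas Rab3b was well above it in all genotypes and WT lay close to hGas. Cytl1, a cytokine-like gene, read 5.73, 5.51 and 5.53 in Gas-/-, 3.96, 4.0 and 3.25 in hGas and 4.41, 4.56 and 4.25 in WT mucosa. Sycn, the zymogen granule gene, read 13.30, 13.34 and 13.48 in Gas-/-, 12.37, 12.35 and 12.55 in hGas and 13.13, 13.08 and 13.27 in WT mucosa, so that the hGas arrays stood apart while Gas-/- and WT nearly touched. The peptide hormone genes Ppy, for pancreatic polypeptide, and Npy, for neuropeptide Y, differed by 1.21 and 1.14, with 32.1% of the difference between Gas-/- and WT for Ppy and 79.1% for Npy. The summed level of the proximal colon and small intestine list was 2029 to 3141 in Gas-/-, 7066 to 9861 in hGas and 1170 to 4136 in WT mucosa, and the hGas arrays stood apart, on a list that earlier results of these data had shaped. That of the distal colon list was 11888 to 13743 in Gas-/-, 13016 to 14772 in hGas and 14551 to 16929 in WT mucosa, where hGas overlapped both others. The part of the colon segment sampled in these differences was not tested.

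The other 16 genes held the largest difference. Speer4cos, whose product has no settled role, read 7.81, 7.94 and 7.68 in Gas-/-, 4.96, 5.16 and 4.83 in hGas and 6.46, 5.89 and 6.11 in WT mucosa, a 7.11-fold difference. Tmem267, a transmembrane protein gene, read 8.18, 7.68 and 8.08 in Gas-/-, 6.07, 5.12 and 5.01 in hGas and 7.60, 7.18 and 7.0 in WT mucosa, with 27.9% of its difference between Gas-/- and WT. Adat2, which codes for a tRNA adenosine deaminase, read 7.60, 7.98 and 7.53 in Gas-/-, 5.51, 5.36 and 5.51 in hGas and 5.62, 5.52 and 5.66 in WT mucosa. Of the Adat2 difference, 93.6% lay between Gas-/- and WT, and the hGas and WT arrays came within 0.01 of each other. Fut9, the fucosyltransferase gene that makes the Lewis x sugar, read 9.09, 8.99 and 9.22 in Gas-/-, 7.60, 7.38 and 7.64 in hGas and 7.97, 7.65 and 8.26 in WT mucosa.

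The genes just inside the limit of 0.5 were Pid1, Svopl, Wdr6 and Celf2, all with a difference of 0.52. Celf2, an RNA-binding splicing factor gene, read 8.87, 8.94 and 8.77 in Gas-/-, 8.32, 8.34 and 8.35 in hGas and 8.38, 8.35 and 8.44 in WT mucosa, and Pid1, an adaptor gene of insulin signalling, read 8.50, 8.58 and 8.62 in Gas-/-, 7.98, 8.13 and 8.05 in hGas and 8.18, 8.22 and 8.31 in WT mucosa. Wdr6, a WD-repeat gene, read 10.38, 10.37 and 10.14 in Gas-/-, 9.75, 9.82 and 9.76 in hGas and 9.96, 9.85 and 9.99 in WT mucosa. Svopl, a transporter-like gene, read 4.51, 4.56 and 5.05 in Gas-/-, 4.39, 4.26 and 3.93 in hGas and 4.41, 4.41 and 4.42 in WT mucosa, with neighbouring genotypes close together. Just outside it, with the same order of arrays, were Entpd1 (0.49), Rprm (0.48), Meis1 (0.48) and Sgtb (0.47). The remaining genes were Eps8l1, an actin-regulating gene, Srpk2, a kinase gene of splicing factors, Snx30, Ddx59, an RNA helicase gene, N4bp2l1, Synrg, which acts in clathrin-coated vesicle traffic, Ttc26, an intraflagellar transport gene, and Sun2, a nuclear envelope gene, with differences from 0.54 to 1.20.

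Other probe sets of the same genes, which the rule did not use but which read the same RNA, were present for 52 of the 84. Of these 99 probe sets, 48 had a mean of at least log2 4, over 32 genes. The Gas-/- minus hGas difference of the 48 had a median of 0.48, was above 0 in 46, was under 0 in 1 (Chrdl1, -0.59) and was at least 0.5 in 24. Genotype means were in the same order in 32, and all 9 arrays in 14 probe sets of 12 genes. The second probe set of Ms4a1 had means of 6.79 in Gas-/-, 2.82 in hGas and 5.64 in WT mucosa, a difference of 3.97 that depends on the background level, since its hGas mean was under log2 4. That of Coro1a differed by 1.32. Probe sets of Fut9 differed by 1.93 and 0.39. Those of Dock2, Ikzf1 and Rac2 were under log2 4 and differed by at most 0.14.

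**Figure D4:**
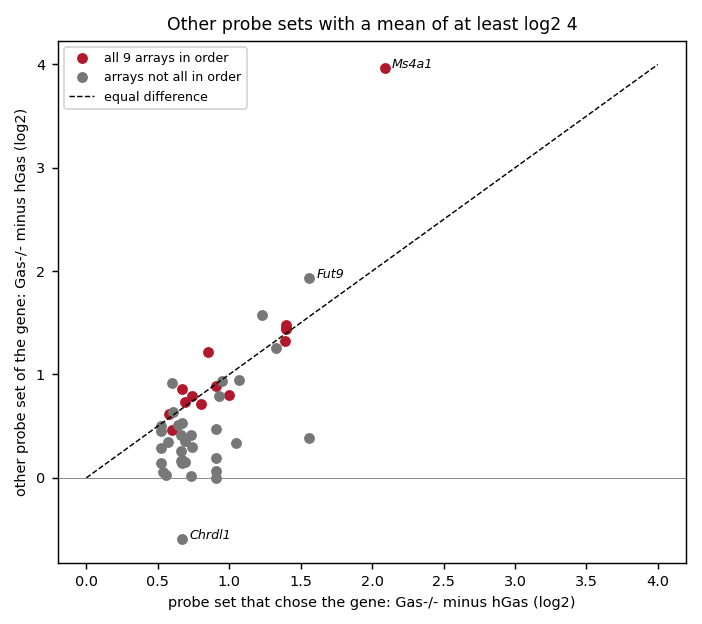
Gas-/- minus hGas difference (log2) of the 48 other probe sets with a mean of at least log2 4, vertical axis, against that of the probe set that chose the gene, horizontal axis. Red points have all 9 arrays in order and the dashed line marks equal differences: 46 points lie above 0, many of them under the dashed line, Ms4a1 above it, and 1 probe set of Chrdl1 lies under 0.

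The limma fit over 11274 genes, adjusted by the Benjamini-Hochberg method, gives the background for these counts. Higher calls in Gas-/- than in hGas made up 8.51% of all genes and lower calls 8.05%. Against WT, Gas-/- mucosa had 6.63% higher and 5.48% lower, and hGas mucosa 0.639% higher and 0.523% lower. Of the 84 genes, 82 were called higher in Gas-/- than in hGas, 65 higher in Gas-/- than in WT, and 11 lower in hGas than in WT. Since these contrasts chose the genes, nothing is read from the counts. Calls between hGas and WT depended on single arrays: 131 genes were called with all 9 arrays, 26 without hGas replicate 1 and up to 104 when another was left out. Called in all 3 were Abi3bp, Clu, Coro1a, Mfge8, Rassf5 and Speer4cos.

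The 14 genes that met the order but were left out by symbol came from the families the 84 genes sit beside. They were the immunoglobulin gene Ighv14-2 (Gas-/- minus hGas 2.98), the antigen receptor signal chains Cd79a (2.92) and Cd79b (2.56), the chemokine receptor Ccr6 (2.59) and the follicle chemokine Cxcl13 (2.50). Cxcl13 read 8.85, 8.64 and 8.68 in Gas-/-, 6.16, 6.15 and 6.34 in hGas and 7.15, 7.19 and 7.15 in WT mucosa. The leukocyte surface genes Cd37 (1.91), Cd72 (1.41) and Cd52 (0.88) and the class II antigen presentation genes H2-DMa (1.69), H2-DMb2 (1.57), H2-Eb1 (1.32), H2-Aa (1.26), H2-Ab1 (1.17) and Cd74 (1.16) made up the rest.

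Listed genes outside the 84 were read from the fit, with the array values shared with the genes above, so they are no independent support. Those that met the conditions and were left out by symbol had their direction fixed by the rule, so counts are also given without them. On the B cell list, 11 tested genes did not meet the conditions, and 7 were higher and 0 lower in Gas-/- than in hGas mucosa, with a median difference of 0.69 over the 11 against 0.00 over all genes. With the 4 left out by symbol, 11 of 15 were higher and the median was 1.15. Against WT, 3 of the 11 were higher and 0 lower in Gas-/-, and 0 were higher and 1 lower in hGas mucosa, against 5 higher in Gas-/- and 3 lower in hGas of the 15. The hGas calls against WT of the other two, Cd79a and Cd79b, were lost in 9 and 12 of 20 alternative settings. Fcmr, which codes for the receptor of immunoglobulin M, read 6.81, 6.24 and 6.53 in Gas-/-, 3.98, 3.95 and 3.96 in hGas and 6.84, 5.89 and 6.06 in WT mucosa. All 3 hGas arrays of Fcmr lay under log2 4, so its log2 change of -2.30 in hGas against WT (limma SE 0.23, adjusted p = 0.00256) depends on the background level, and its change of 0.26 between Gas-/- and WT missed the threshold (adjusted p = 0.515). Ikzf3, the Aiolos gene of the Ikaros family, read 5.49, 4.44 and 4.87 in Gas-/-, 2.45, 2.73 and 2.44 in hGas and 2.98, 2.91 and 2.19 in WT mucosa. Its Gas-/- mean exceeded the WT mean by 2.24, with hGas and WT both near background. Ikzf3 passed the filter by its Gas-/- arrays alone, so its direction was fixed. It is among the 7 and the 3 genes called higher of the 11, and nothing is read from its calls.

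Of the 10 pan-leukocyte genes outside the 84, 7 were higher and 0 lower in Gas-/- than in hGas mucosa, 6 were higher and 0 lower in Gas-/- than in WT, and 0 were called between hGas and WT in the limma fit (1, lower in hGas, at an unadjusted p under 0.05). Without Cd52, which met the conditions, 6 of 9 were higher in Gas-/- than in hGas and 5 of 9 higher than in WT. Ptprc, the gene for the leukocyte phosphatase CD45, read 9.58, 9.01 and 9.36 in Gas-/-, 8.28, 8.16 and 8.18 in hGas and 8.67, 8.42 and 8.24 in WT mucosa. It rose by 1.11 in Gas-/- over hGas (SE 0.14, adjusted p = 0.00076) and by 0.87 over WT (adjusted p = 0.00386), while hGas and WT overlapped. On the macrophage and dendritic cell list 5 of 11 were higher and 0 lower in Gas-/- than in hGas, among them Lyz2 (0.68, adjusted p = 0.00261) and Mpeg1 (0.63, adjusted p = 0.00861), but 2 without Gas-/- replicate 1 and 3 without hGas replicate 3. On the B cell receptor signalling list 6 of 15 were higher and 0 lower, among them Blnk, an adaptor gene (0.33, adjusted p = 0.00416), but 3 without Gas-/- replicate 1 and 3 without Gas-/- replicate 3. With the replicate block, 7 of these 15 were higher and 0 lower. On these 3 lists and the B cell list, 0 were lower in Gas-/- than in hGas at an unadjusted p under 0.05 as well.

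Of the 14 class II antigen presentation genes, 6 met the conditions and were left out by symbol. Of the 8 others, 3 were higher and 0 lower in Gas-/- than in hGas mucosa, 2 higher and 0 lower than in WT, and in hGas mucosa 0 were higher and 1 lower than in WT. Over all 14 these counts were 9 and 8 higher in Gas-/- and 5 lower in hGas, and the hGas calls against WT of H2-Aa and H2-Ab1 were lost in 12 and 10 of 19 settings. With the replicate block, 4 of the 8 others were higher and 0 lower in Gas-/- than in hGas. On the interferon list 10 of 22 were higher in Gas-/- than in hGas and 16 of 22 higher than in WT, 0 were lower in either, and 0 were called between hGas and WT by limma (2, higher in hGas, at an unadjusted p under 0.05). The 10 became 16 with the replicate block, 19 without Gas-/- replicate 2, 5 without Gas-/- replicate 1 or 3 and 6 without hGas replicate 2 or 3. Psmb8, an immunoproteasome gene, was higher in Gas-/- than in hGas by 0.97 (SE 0.14, adjusted p = 0.0014), and its hGas minus WT change was -0.12 (adjusted p = 0.77). Oasl2 read 10.65, 9.16 and 10.46 in Gas-/-, 8.33, 8.14 and 8.13 in hGas and 8.08, 8.08 and 7.21 in WT mucosa, with Gas-/- replicate 2 below the other two. The plasma cell list had 1 of 7 higher and 0 lower in Gas-/- than in hGas, and 5 of 7 higher than in WT. That 1 gene was Irf4, a plasma cell and activated lymphocyte factor gene, with means of 5.26 in Gas-/-, 3.44 in hGas and 3.43 in WT mucosa. Irf4 reached log2 4 on the Gas-/- arrays only and passed the filter through them. The filter thus fixed its direction against both other genotypes, and nothing is read from its calls. Between hGas and WT, limma called 0 of these 7, but 4 were higher and 0 lower in hGas at an unadjusted p under 0.05 (median 0.45). The summed plasma cell level was 33747 to 37287 in Gas-/-, 23403 to 30398 in hGas and 13977 to 22106 in WT mucosa. By this sum hGas lay above WT, the reverse of the order of hGas and WT that the rule required.

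On the NF-kB list 5 of 15 were higher and 1 lower in Gas-/- than in hGas, among them Icam1, an adhesion molecule gene (0.94, adjusted p = 0.00249). The NF-kB count was 3 higher without Gas-/- replicate 1 or 3 or hGas replicate 2, and 6 higher and 1 lower with the replicate block. On the follicle stroma and M cell list, 1 of 8 was higher and 1 lower besides Cxcl13, which met the conditions, and the lower one was the chemokine gene Ccl9 (-0.87, adjusted p = 0.00776). The germinal centre list had 0 higher (2 at an unadjusted p under 0.05) and 2 lower of 7. These were Elovl6, a fatty acid elongase gene (-0.48, adjusted p = 0.00768), and Rgs13, a regulator gene of G protein signalling (-1.04, adjusted p = 0.0159), whose call was lost without Gas-/- replicate 3 (-0.92, adjusted p = 0.0648) and without hGas replicate 1 (-0.87, adjusted p = 0.0636). The T cell list had only 2 genes tested, Cd28 and Lat, both higher in Gas-/- than in hGas. Cd28 had means of 4.53 in Gas-/-, 2.97 in hGas and 2.96 in WT mucosa and reached log2 4 on the Gas-/- arrays only. It passed the filter through the genotype where it was high, so its direction was fixed and nothing is read from its call. The call of Lat (adjusted p = 0.0352) was lost on leaving out Gas-/- replicate 1 or 3 or hGas replicate 2 or 3, with adjusted p-values of 0.0795, 0.0557, 0.105 and 0.0742. Epithelial genes were 5 higher and 1 lower of 19, fibroblast genes 3 and 0 of 10, endothelial genes 1 and 0 of 10, distal colon genes 2 and 1 of 10, and replication and mitosis genes 1 and 2 of 18. Leaving out 1 array gave 3 to 5 higher epithelial genes, 1 to 3 higher fibroblast genes, 0 to 3 higher distal colon genes and 0 to 2 higher replication genes. Calls of single genes were lost in several of 20 settings: Col14a1 in 12, Plk1 in 9, Krt18 and Hoxb13 in 6 each, Mcm2 in 5 and Dcn in 4. With the replicate block the call of Col14a1 ended (0.23, adjusted p = 0.0581), and fibroblast genes were 2 higher and 1 lower, epithelial genes 5 and 2, distal colon genes 3 and 2, and replication genes 2 and 2. At an unadjusted p under 0.05, 3 fibroblast genes were higher and 3 lower. Limma called 0 of 9 smooth muscle genes, 0 of 5 enteric neuron and glia genes, 0 of 3 adipocyte genes and 0 of 2 gastrin system genes. At an unadjusted p under 0.05 these were 1 higher and 2 lower of the smooth muscle genes, 1 higher of the adipocyte genes and 0 of the other two lists, and the block called 1 smooth muscle and 1 adipocyte gene higher. Steroid and xenobiotic metabolism genes went the other way, with 1 higher and 9 lower of 17, as did all 10 of the proximal colon and small intestine list, which earlier results of these data had shaped. On that list Nts, Prap1 and Hoxb6 reached log2 4 on hGas arrays only, so the filter fixed their direction.

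**Figure D5:**
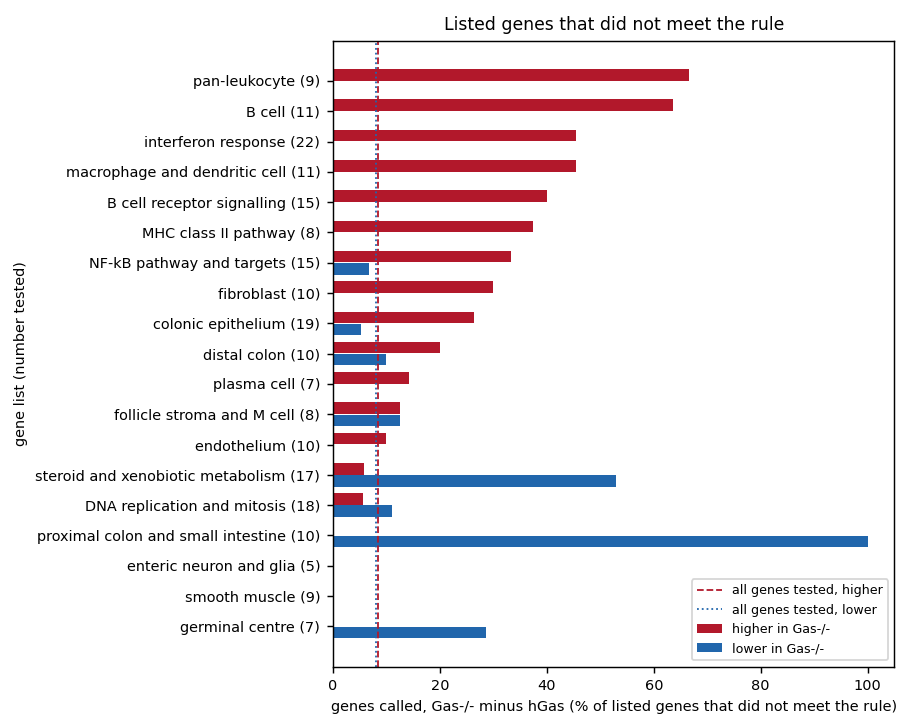
Share of the genes of each list that were called higher (red) or lower (blue) in Gas-/- than in hGas mucosa, leaving out every gene that met the conditions, for lists with at least 5 such genes, with the number tested in brackets. Vertical lines give the shares over all genes tested, 8.51% and 8.05%: the B cell bar stands at 7 of 11 and the smooth muscle and enteric neuron rows are empty. The 7 include Ikzf3, which passed the filter by its Gas-/- arrays alone, as did Irf4 of the plasma cell list.

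The 84 genes lay on 18 chromosomes, with the largest number, 8 each, on chromosomes 7 and 11. By the gene order of assembly GRCm38.p6, 6 pairs lay within 1 Mb of each other. Ncf4 and Csf2rb had no other measured gene between them, and Spib and Napsa had 1. Napsa was thus among the secretory genes by role while its neighbour Spib was among the B lymphocyte genes, with differences of 2.39 and 1.83. The other pairs were Csf2rb and Rac2, Itgb2 and Icosl, Svopl and Ttc26, and Sycn and Ppp1r14a.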

How the data were processed

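The deposited log2 values of 9 Affymetrix arrays were made by the authors with GCRMA, per the submitters' processing notes, which give no version. GCRMA corrects background from probe sequence, normalises by quantiles and summarises probe sets, so values under about log2 4 lie near background and small differences there are uncertain. All value columns were used. The platform annotation gave 34958 probe sets a single gene and 932 several, and 64 were controls. All 84 genes were matched by Entrez number to the RefSeq table of assembly GRCm38.p6, and 0 symbols changed.

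Genes with at least 3 arrays at log2 4 (11274) were fitted in limma 3.58.1 under R 4.3.3 (lmFit, then eBayes with trend) over the 9 arrays, with genotype as the only term. P-values are 2-sided and adjusted over all these genes by the Benjamini-Hochberg method, with calls made under 0.05. The fit was tested on simulated data first. Selection, promoter matches and figures used Python 3.11.15, pandas 2.3.3 and matplotlib 3.10.9.

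The genes, roles and 22 gene lists were chosen with earlier results of these data known, and the roles after the values were seen. Values are given for each array of the 15 named genes with the largest Gas-/- minus hGas difference, of those on a list and of the 4 just inside the limit, with role examples chosen after values were seen. Outside the set, the 4 genes just outside the limit, those left out by symbol and up to 4 called genes per list with the smallest p were eligible.

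Replicate numbers are shared across genotypes. The correlations of deviations between arrays of the same number were 0.117, 0.201 and 0.267 for Gas-/- and hGas, 0.150, -0.006 and 0.145 for Gas-/- and WT, and 0.254, 0.084 and 0.203 for hGas and WT. Every pair passed 0.1 for Gas-/- and hGas, so by this limit the numbers pair those arrays, though no label says what a number marks, and values with the number as a block are given where they change a call or move a count by over 1.5 times. For the other two comparisons 1 pair each stayed under 0.1, and the numbers were not taken to pair the arrays. The limit separates these comparisons narrowly, since hGas and WT also had correlations of 0.254 and 0.203. Calls come from the fit without the block in all comparisons, Gas-/- against hGas included, unless the block is named. Alternatives changed the filter, the limit, the scaling, the probe set rule, the eBayes settings, the arrays fitted and the replicate block, and left out each array in turn. Probe sets without a single annotated gene were not tested.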

Additional observations from a re-analysis of the deposited data

Results flagged for a closer look

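Outside the genes described, 17 probe sets without a single gene met the same order of the 9 arrays and the same limit of 0.5, with Gas-/- minus hGas differences from 0.55 to 3.33 (log2). They are 0.519% of the 3273 such probe sets with a mean of at least log2 4. These probe sets entered no comparison in the report, and the values are given without a test.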

How the results depend on the processing

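The number of genes in the set depends on its limits: 84 became 53 with a mean of at least log2 6 and 36 with a limit of 1. Leaving out 1 array at a time gave 87 to 127, the highest without WT replicate 3, since fewer arrays have to be in order. The mean of a gene's probe sets gave 57 genes, of which 46 were among the 84, and plain _at probe sets gave 72, of which 66 were. Of the values of named genes in the set, 332 of 348 moved by less than 1 SD, and the other 16 moved with the choice of probe set: Coro1a differed by 0.11, Dock2 by 0.02 and Ebf1 by 0.02 with plain _at probe sets. Those plain _at probe sets had means of 2.97 for Coro1a and 2.46 for Dock2, near background, and 4.27 for Ebf1. Genes called between hGas and WT numbered 131 in the fit described, 58 with no filter, 27 with those 6 arrays alone and 26 to 104 on leaving out 1 array, with 98 without hGas replicate 3, 104 without WT replicate 2 and at most 79 without any other. Leaving out 1 array gave 888 to 1375 calls for Gas-/- against WT (1366 with all), the lowest without Gas-/- replicate 1, 1219 to 1996 for Gas-/- against hGas (1866 with all, 1219 without Gas-/- replicate 3 and 1232 without replicate 1), and 70 to 101 listed genes outside the set (94 with all). With the replicate number as a block, calls between hGas and WT numbered 283. It also ended the call of Cd79a between Gas-/- and WT (adjusted p = 0.0502) and of Col14a1 between Gas-/- and both others (0.0532 and 0.0581), and it added calls of Cd37 and H2-DMa between hGas and WT and of Cd72 between Gas-/- and WT. No label says what the shared numbers mark, and outside Gas-/- against hGas not every same-numbered pair correlated above 0.1. No value of a named gene changed sign under any of these settings, and 2374 of 2607 values of named genes outside the set kept their side of the threshold.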
